A study of Elodea nuttallii and Chlamydomonas reinhardtii with 18 samples.

Results

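The transcripts described here are those of Elodea nuttallii, a submerged freshwater waterweed, whose names in the authors' deposited tables refer to the handling of metals. They were chosen by words in the description of each transcript: copper transporter, copper-transporting, zinc transporter, metal tolerance, heavy metal, ferric, metal transporter, nramp, metallothionein or ferritin. The words matched 9 transcripts of 6 assembled loci, out of 4728 described transcripts and of 58110 Elodea transcripts in all. The tables list only transcripts that the authors called changed between 2 sites, so every member was chosen on its own measured difference. All differences given for the members are therefore descriptions. Where a member is said to be called higher or lower, this reports how the fit over all transcripts classed it, and is no independent test of it.

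All shoots were the top 10 cm with the apex, taken from a clean site, and were then held for 2 h in the River Olt at Valcea or at 1 of a pair of places at Babeni, named Babeni site 1 and Babeni site 2 (site 1 and site 2 for short). Each place has 3 libraries. The title of the series concerns mercury toxicity, and the sources used here state no level of any metal. Nothing in the labels tells separate plants from repeat extracts of 1 plant, so the spread within a site may be technical. Site is the only recorded difference between the groups, and mercury and every other property of a site cannot be told apart.

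Plants need iron and copper for photosynthesis and respiration, and both metals are toxic when free in excess. Cells take them up through membrane carriers, often after reducing the ion at the surface, hand them to the proteins that carry or use them, and move the surplus out of the cell or into the vacuole. In green shoots much of the copper sits in plastocyanin, the small electron carrier of the chloroplast, and much of the iron in the haem and iron-sulfur proteins of photosynthesis.

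By name, 1 of the 9 transcripts is a ferric-chelate reductase, 1 a copper transporter, 4 are copper-transporting ATPases, 1 is a metal tolerance protein and 2 are heavy metal transport and detoxification proteins. The words zinc transporter, metal transporter, nramp, metallothionein and ferritin each matched 0 described transcripts. That says nothing about the expression of such genes, because a transcript outside these tables has no description here. Levels are normalised read counts (CPM, counts scaled to a common library size by the authors), given per library or as mean ± SD, where n = 3 at each site. Differences between sites are on the log2(CPM + 0.5) scale with their standard error (SE), a scale that understates the change of low transcripts. "Higher" and "lower" are used as calls of the limma fit over all tested transcripts, which required a 2-fold difference and a p under 0.05 after Benjamini-Hochberg adjustment.

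Recovered depth was 2875062 to 4875382 reads per library at Valcea, against 4578385 to 4985937 at site 1 and 6932366 to 7824727 at site 2. A count of 3 reads is worth 0.564 to 1.19 CPM at Valcea, against 0.572 to 0.645 CPM at site 1 and 0.351 to 0.433 CPM at site 2. The 63 described transcripts of chlorophyll-binding, photosystem and Rubisco small subunit proteins served as a marker of green tissue. They summed to 10291 to 14172 CPM per library at Valcea, 6707 to 7222 CPM at site 1 and 3499 to 4480 CPM at site 2. Only transcripts that the authors called changed have a description, so this sum is no independent check of the tissue. Its order of sites was also that of the reductase, the copper transporter, both heavy metal proteins and Locus_9843_Transcript_3_6_. The remaining members did not follow that order. The part of the green-tissue sum in the members' differences was not tested. In whole shoots, fewer cells of a type and less RNA per cell cannot be told apart. Of the words for algae or diatoms, 1 transcript matched (Locus_12779_Transcript_1_1_, named as a fucoxanthin chlorophyll a/c binding protein, an antenna protein of diatoms and brown algae), at 19.6 to 21.8 CPM per library at Valcea, 8.59 to 11.2 CPM at site 1 and 6.90 to 8.66 CPM at site 2. Its part in the members' differences was not tested, and the words for animal genes matched 0 described transcripts. These matches have the same limit and say nothing about algal or animal transcripts that the authors did not list.

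All 9 transcripts passed the filter on low values (1 CPM or more in 3 or more libraries), but 3 of the scarce ones passed without any library of a site where they were low. An ATPase transcript (Locus_9843_Transcript_4_6_) passed only through Valcea, another (Locus_9843_Transcript_3_6_) only through Valcea and Babeni site 1, and the metal tolerance transcript only through the Babeni libraries, so these had to differ between sites to be counted. Against Valcea, Babeni site 1 had 5 members lower, of 4 loci, 1 higher and 3 not called, where 4.9% of all 56752 tested transcripts were lower and 4.17% higher. Babeni site 2 had 6 lower, of 4 loci, 1 higher and 2 not called, where 6.09% of all were lower and 6% higher. Between the Babeni sites 2 members, of 1 locus, were lower at site 2, 0 were higher and 7 were not called, where 1.63% of all were lower and 1.55% higher. With a pseudocount of 2, and under DESeq2, the members called at Babeni site 1 against Valcea were 2, the reductase and the copper transporter, and without Babeni site 1 replicate 2 they were 3. For Babeni site 2 against Valcea both settings left 4 members called, the same pair and both heavy metal proteins. The rule used these same contrasts, so nothing is read from the distance between those counts and the background. The comparisons with Valcea share its 3 libraries.

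The median difference over the 9 members was −1.10 for Babeni site 1 against Valcea, beside 0.03 over all tested transcripts and −0.18 over the 4685 tested transcripts with a description. For Babeni site 2 against Valcea the members' median was −1.44, beside 0.05 and −0.41. For Babeni site 2 against Babeni site 1 it was −0.37, beside 0.02 and −0.06. The difference was below 0 for 8 of the 9 members in each comparison with Valcea and for 7 of 9 between the Babeni sites. The members come from 6 loci and were chosen on these contrasts, so they are not 9 separate observations. The share of all tested transcripts below 0 was not counted, and nothing is read from these counts.

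**Figure D1:**
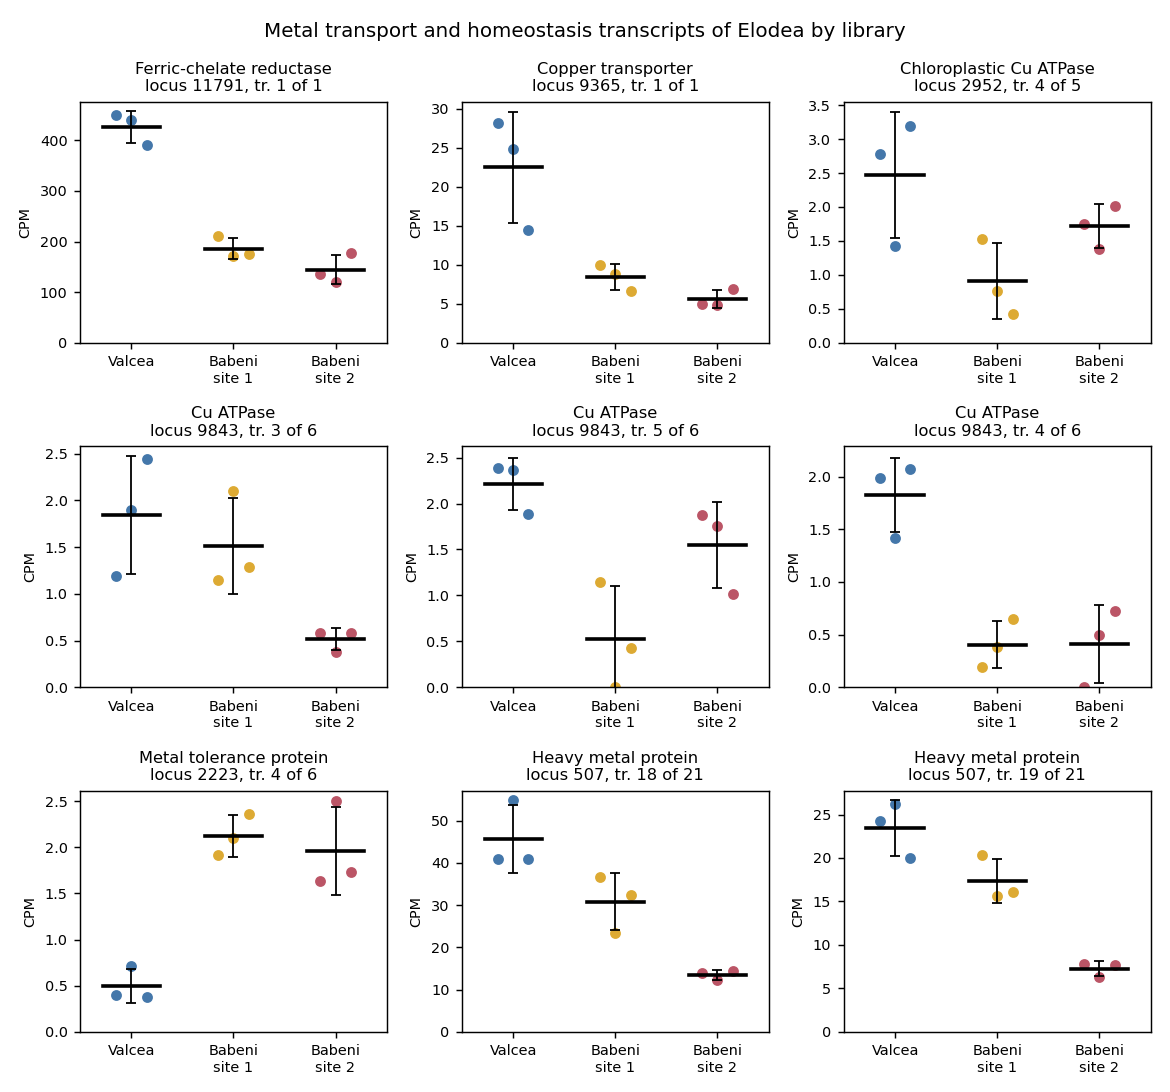
Level in CPM of each of the 9 metal-handling transcripts (y axis, linear, from 0) in the 3 libraries of each site (points), with the mean (line) and SD (error bar) per site. The reductase, the copper transporter and both heavy metal proteins stepped down from Valcea to Babeni site 2, the metal tolerance transcript was the only one of the 9 with a higher mean at both Babeni sites, and the ATPases stayed at or under 3.20 CPM in every library.

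The ferric-chelate reductase transcript (Locus_11791_Transcript_1_1_, 825 bases, the single transcript of its locus) was the most abundant member per length. Enzymes of this name reduce ferric iron at a membrane so that ferrous iron can be carried across it. Its level was 449.9, 441 and 391 CPM in the Valcea libraries, 210.1, 172 and 175 CPM at site 1, and 136, 121 and 177 CPM at site 2. Every Babeni library lay below every Valcea library, while the Babeni sites overlapped, with 1 site 2 library above 2 of the site 1 libraries.

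The mean level of the reductase fell from 427 ± 31.8 CPM at Valcea to 186 ± 21.1 CPM at site 1 and 145 ± 29.2 CPM at site 2, which puts Valcea 2.30-fold and 2.95-fold above them. The log2 differences were −1.20 ± 0.14 and −1.57 ± 0.14 (SE), both called lower. Between the Babeni sites the difference of −0.37 ± 0.14 was not called. Counted reads per library ran from 815 to 2077, so this is the member with the least counting error. Its calls and directions held under every one of the 18 alternative settings in each of the 3 comparisons, of which the locus sum only repeats its own level. The authors' deposited table gives log2 fold changes of −1.20 and −1.56 for the Babeni sites against Valcea.

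By the correlation of log2(CPM + 0.5) over the 9 libraries, the described transcripts of other loci most like the reductase were 5 of 4684 compared. They are Locus_19583_Transcript_4_5_, a regulatory subunit of protein phosphatase 4 (Pearson r = 0.995), Locus_16405_Transcript_3_3_ and Locus_2772_Transcript_1_1_, both named as rubredoxin-like proteins, a family of small iron-binding electron carriers (r = 0.994 and r = 0.992), Locus_10957_Transcript_6_14_, a pyridoxal biosynthesis protein (r = 0.992), and Locus_13101_Transcript_1_1_, the H protein of the mitochondrial glycine cleavage system, which takes part in photorespiration (r = 0.990). These are descriptions over n = 9 libraries that share the split into sites, their depth and the authors' scaling. The more abundant rubredoxin-like transcript averaged 323 ± 32.3 CPM at Valcea against 111 ± 2.89 CPM at site 1 and 81.7 ± 11.5 CPM at site 2. The H protein transcript averaged 976 ± 186 CPM at Valcea against 312 ± 68.5 CPM at site 1 and 238 ± 59.4 CPM at site 2.

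The copper transporter transcript (Locus_9365_Transcript_1_1_, 249 bases, the single transcript of its locus) is named for the carriers that bring reduced copper into the cell. It had 28.2, 24.8 and 14.5 CPM in the Valcea libraries, 9.96, 8.78 and 6.66 CPM at site 1, and 5.03, 4.88 and 6.93 CPM at site 2. All Babeni libraries lay below all Valcea libraries, Valcea replicate 3 was the lowest of its site, and the Babeni sites overlapped.

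The mean level of the copper transporter was 22.5 ± 7.15 CPM at Valcea against 8.47 ± 1.67 CPM at site 1 and 5.61 ± 1.14 CPM at site 2. Valcea stood 2.66-fold above Babeni site 1 (log2 difference −1.32 ± 0.24, called lower) and 4.01-fold above Babeni site 2 (−1.87 ± 0.24, called lower). The difference between the Babeni sites was −0.55 ± 0.24 and was not called. This transcript, too, kept its direction and calls under all 18 alternatives in each comparison, of which the locus sum again only repeats its own level. Over the 9 libraries its log2 level correlated with that of the reductase at r = 0.968, again a description over libraries that share the sites. The libraries held 31 to 105 reads of this short transcript.

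The 4 copper-transporting ATPase transcripts came from 2 loci. Such ATPases use ATP to pump copper across a membrane, and in Arabidopsis the chloroplast pumps supply copper for plastocyanin. All 4 carry the ontology terms for copper-exporting ATPase activity and copper ion export in the authors' deposited tables. They were scarce: with the metal tolerance transcript they make up the 5 members with a mean under 5 CPM at every site, which ran from 0 to 3.20 CPM per library, with at most 20 reads and a median of 6 reads. Differences of a few reads decide their values.

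The chloroplastic ATPase transcript (Locus_2952_Transcript_4_5_, 1817 bases) averaged 2.47 ± 0.930 CPM at Valcea against 0.908 ± 0.565 CPM at site 1 and 1.72 ± 0.324 CPM at site 2. The libraries of Babeni site 1 and Valcea overlapped. It was called lower at Babeni site 1 against Valcea (−1.10 ± 0.36), a call lost in 12 of the 17 alternatives under which it was tested. The difference was −0.38 ± 0.36 for Babeni site 2 against Valcea and 0.72 ± 0.36 between the Babeni sites, neither called.

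The other 3 ATPase transcripts belong to Locus_9843. Locus_9843_Transcript_4_6_, the member that passed the filter only through Valcea, averaged 1.83 ± 0.353 CPM there, 0.406 ± 0.228 CPM at site 1 and 0.408 ± 0.370 CPM at site 2, and was called lower at both (−1.38 ± 0.40 and −1.44 ± 0.40). Locus_9843_Transcript_5_6_ averaged 2.21 ± 0.285 CPM at Valcea against 0.526 ± 0.581 CPM at site 1 and 1.54 ± 0.467 CPM at site 2, and was called lower at Babeni site 1 (−1.56 ± 0.40) and not called at Babeni site 2 (−0.43 ± 0.40). Locus_9843_Transcript_3_6_ averaged 1.84 ± 0.629 CPM at Valcea against 1.51 ± 0.513 CPM at site 1 and 0.513 ± 0.119 CPM at site 2, and was called lower at Babeni site 2 (−1.18 ± 0.34) and not called at Babeni site 1 (−0.21 ± 0.34). The last pair thus had their lowest mean at different Babeni sites, at r = −0.236 over the 9 libraries. Between the Babeni sites the differences were −0.06 ± 0.40, 1.13 ± 0.40 and −0.97 ± 0.34 in the same order, none of them called. With a pseudocount of 2, and under DESeq2, all the calls of these 3 transcripts against Valcea were lost. With that pseudocount a transcript with a mean under 2 CPM cannot fall 2-fold. For Locus_9843_Transcript_4_6_ and Locus_9843_Transcript_3_6_ that loss was thus fixed by their Valcea means. edgeR kept the calls of both at Babeni site 2 and that of Locus_9843_Transcript_5_6_ at Babeni site 1. It lost that of Locus_9843_Transcript_4_6_ at Babeni site 1. Transcripts of 1 locus share sequence, so how the reads were split among them is uncertain. Locus_9843_Transcript_3_6_ and Locus_9843_Transcript_5_6_ also carry the ontology terms proteasome core complex and cytosolic ribosome, which copper pumps are not known for.

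The sum over a locus depends less on that split. Locus_9843 as a whole, with 4 of its 6 numbered transcripts in the table, fell from 8.67 ± 0.980 CPM at Valcea to 3.15 ± 0.732 CPM at site 1 and 2.72 ± 0.360 CPM at site 2. Its log2 differences against Valcea were −1.35 ± 0.23 and −1.51 ± 0.23, both called lower, beside 5.02% and 6.06% of all 36309 tested loci that were lower. The difference between the Babeni sites was −0.16 ± 0.23, where 1.61% of all loci were lower at site 2. Its further transcript, Locus_9843_Transcript_1_6_, is named only as a P-type ATPase and was likewise lower at both Babeni sites, at 2.79 ± 0.528 CPM at Valcea against 0.701 ± 0.670 CPM at site 1 and 0.254 ± 0.214 CPM at site 2. All 4 transcripts in the Locus_9843 sum were listed as changed by the authors. The calls of the sum and of this further transcript are therefore descriptions too, and no separate support for the members. The locus of the chloroplastic ATPase summed to 3.60 ± 0.532 CPM at Valcea against 1.38 ± 0.466 CPM at site 1 and 2.57 ± 0.765 CPM at site 2. That locus was called lower at Babeni site 1 (−1.14 ± 0.29) and not called at Babeni site 2 (−0.44 ± 0.29).

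The metal tolerance transcript (Locus_2223_Transcript_4_6_, named metal tolerance protein 4-like, 1612 bases) was the member with higher levels at the Babeni sites. Metal tolerance proteins are cation diffusion facilitators that move metals such as zinc or manganese out of the cytosol, and this transcript carries the ontology term vacuolar membrane. It had 0.397, 0.710 and 0.376 CPM at Valcea, 1.91, 2.10 and 2.36 CPM at site 1, and 1.64, 2.50 and 1.73 CPM at site 2, which is 1, 3 and 2 reads, then 10, 11 and 11 reads, then 14, 20 and 12 reads. No Babeni library overlapped a Valcea library, and the Babeni sites overlapped each other.

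The transcript was called higher at Babeni site 1 (1.41 ± 0.31) and at Babeni site 2 (1.30 ± 0.31) against Valcea, with −0.11 ± 0.31 between the Babeni sites. It reached 1 CPM in 0 Valcea libraries and passed the filter only through the Babeni sites, where it was high. Both calls were lost with a pseudocount of 2, which shrinks the differences of transcripts this scarce, and under DESeq2. edgeR kept both. The locus as a whole did not follow it. Its summed level was 11.2 ± 1.50 CPM at Valcea against 15.1 ± 2.99 CPM at site 1 and 11.4 ± 1.39 CPM at site 2, with differences of 0.40 ± 0.18 and 0.03 ± 0.18 against Valcea, neither called. The metal tolerance transcript held 4.34 ± 1.16% of that sum at Valcea against 14.5 ± 3.51% at site 1 and 17.2 ± 3.99% at site 2. The remainder was Locus_2223_Transcript_5_6_, which has no description in the tables and averaged 10.7 ± 1.35 CPM at Valcea against 13.0 ± 3.08 CPM at site 1 and 9.47 ± 1.36 CPM at site 2.

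**Figure D2:**
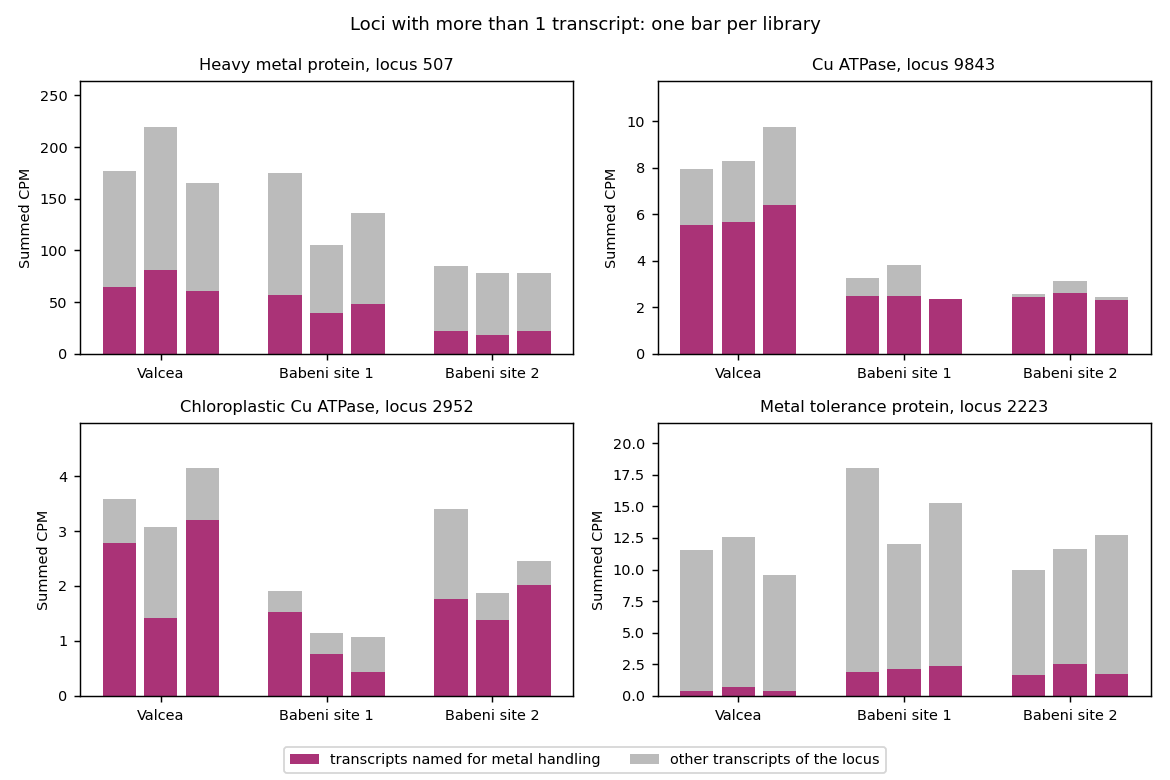
Summed level in CPM (y axis, linear, from 0) of the 4 loci with more than 1 transcript, 1 bar per library grouped by site, split into the metal-handling transcripts and the other transcripts of the locus. The heavy metal locus and the copper ATPase locus of the upper row had smaller sums at Babeni site 2 than at Valcea, whereas the metal tolerance locus averaged 11.2 CPM at Valcea and 11.4 CPM at site 2 while the share of its metal tolerance transcript went from 4.34% to 17.2%.

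Both heavy metal transport and detoxification transcripts came from Locus_507. Proteins of this superfamily carry a small metal-binding domain like that of copper chaperones, and the terms given for both are metal ion transport, metal ion binding, plasmodesma and cell wall. The more abundant, Locus_507_Transcript_18_21_ (1511 bases), had 40.9, 54.9 and 41.0 CPM at Valcea, 36.6, 23.5 and 32.5 CPM at site 1, and 13.9, 12.1 and 14.3 CPM at site 2. The sites did not overlap at all, with Babeni site 1 between the other two.

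Its mean level was 45.6 ± 8.05 CPM at Valcea against 30.8 ± 6.70 CPM at site 1 and 13.5 ± 1.15 CPM at site 2. It was called lower at Babeni site 2 against Valcea (−1.71 ± 0.18, 3.39-fold) and against Babeni site 1 (−1.15 ± 0.18, 2.29-fold), and its difference of −0.57 ± 0.18 between Babeni site 1 and Valcea was not called. The authors' deposited table gives it the smallest fold change among the members' entries, 1.20 on the log2 scale for Babeni site 1 over Babeni site 2. The entry with the highest FDR, the authors' adjusted p, was that of the chloroplastic ATPase at Babeni site 1 (0.0372 in the authors' deposited table).

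Locus_507_Transcript_19_21_ (1903 bases) had 24.2, 26.3 and 19.9 CPM at Valcea, 20.3, 15.6 and 16.1 CPM at site 1, and 7.84, 6.26 and 7.65 CPM at site 2. Babeni site 2 lay below all other libraries, while 1 Babeni site 1 library was above the lowest Valcea library. The differences were −0.43 ± 0.17 for Babeni site 1 against Valcea, not called, −1.63 ± 0.17 for Babeni site 2 against Valcea and −1.20 ± 0.17 between the Babeni sites, both called lower. The log2 levels of both transcripts correlated at r = 0.982 over the 9 libraries, a description of transcripts that share a locus, the libraries and their depth.

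In all, 12 of the 21 numbered transcripts of Locus_507 are in the table. Their sum was 187 ± 28.6 CPM at Valcea against 139 ± 34.9 CPM at site 1 and 80.6 ± 3.76 CPM at site 2, called lower for Babeni site 2 against Valcea (−1.20 ± 0.16) and not called for Babeni site 2 against Babeni site 1 (−0.75 ± 0.16) or Babeni site 1 against Valcea (−0.46 ± 0.16). The drop from site 1 to site 2 that was called for both members was thus smaller over the locus. The other 10 transcripts of the locus all had differences below 0 in every comparison, but they share sequence and are not separate observations. Of these, 3 were called lower for Babeni site 2 against Valcea and 1 between the Babeni sites, beside 6.09% and 1.63% of all tested transcripts. Those 3 were also listed as changed by the authors. One of the 3, Locus_507_Transcript_17_21_, is named as a heavy-metal-associated domain-containing family protein and fell outside the rule by its hyphens. Its mean level was 15.6 ± 2.46 CPM at Valcea against 11.6 ± 2.61 CPM at site 1 and 5.37 ± 0.656 CPM at site 2. Both members together made up 36.8% of the locus at Valcea against 35.2% at site 1 and 25.7% at site 2.

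Per kilobase of transcript, the reductase had the highest mean level of the members at every site, at 518, 225 and 175 CPM per kilobase in the order Valcea, site 1 and site 2. The copper transporter followed with 90.4, 34.0 and 22.5 CPM per kilobase, then Locus_507_Transcript_18_21_ with 30.2, 20.4 and 8.90 and Locus_507_Transcript_19_21_ with 12.3, 9.12 and 3.81 CPM per kilobase. The 5 scarce members lay between 0.210 and 1.36 CPM per kilobase at every site, and their order among themselves is not resolved by their read counts. The order of the 4 abundant members was the same at every site.

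**Figure D3:**
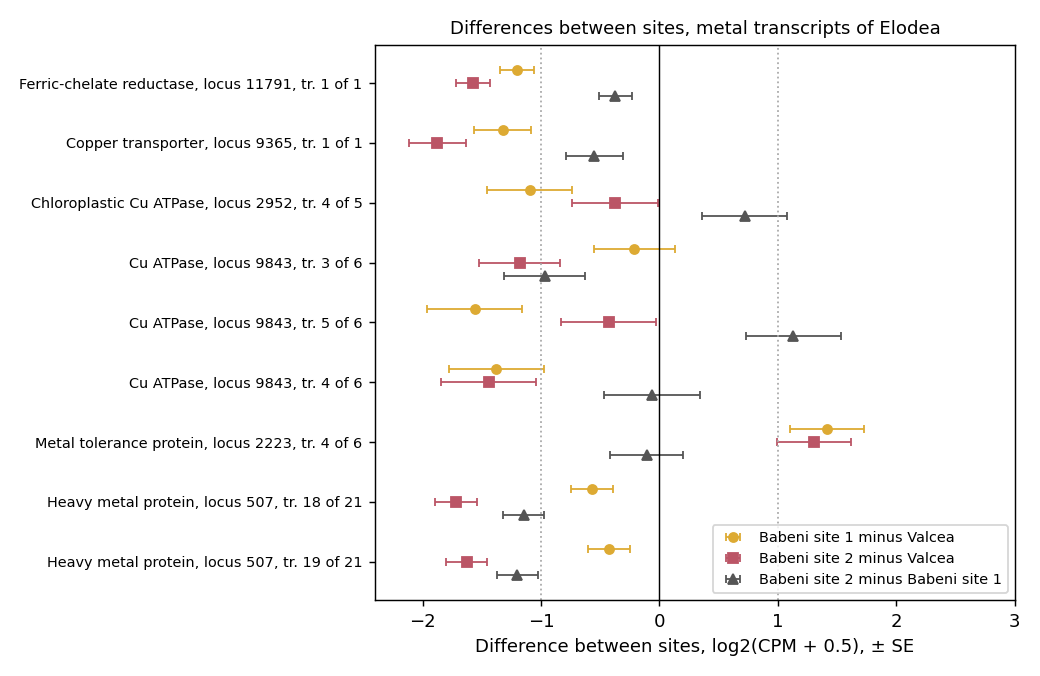
Difference between sites for each of the 9 transcripts on the log2(CPM + 0.5) scale (x axis), with its SE as a bar. Circles compare Babeni site 1 with Valcea, squares Babeni site 2 with Valcea and triangles the Babeni sites, and dotted lines mark 2-fold. The reductase and copper transporter lay beyond 2-fold at both sites against Valcea, the heavy metal proteins beyond 2-fold at Babeni site 2 and within it at Babeni site 1, and the metal tolerance transcript lay alone on the right against Valcea.

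The steps between sites can be set side by side for the 4 abundant members. The reductase and the copper transporter had most of their difference between Valcea and Babeni site 1 (−1.20 and −1.32), and smaller differences between the Babeni sites (−0.37 and −0.55). Both heavy metal transcripts had the larger part between the Babeni sites (−1.15 and −1.20), and the smaller between Valcea and Babeni site 1 (−0.57 and −0.43). Whether these patterns differ from each other was not tested, because the members were chosen on the same contrasts. For Babeni site 1 against Valcea the libraries of both sites did not overlap for 1 member that was higher and 5 that were lower, beside 15.4% and 15.6% of all tested transcripts. For Babeni site 2 against Valcea this held for 1 higher and 7 lower, beside 18.4% and 17.5% of all. Between the Babeni sites it held for 0 higher and 3 lower, beside 12.1% and 11.8% of all.

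Other described genes of metal handling were counted by lists of words, and these too come only from transcripts that the authors called changed in some comparison. Some scarce ones passed the filter only through the sites where they were high, and so had to differ between sites to be counted. Locus_3935_Transcript_4_13_ passed only through Valcea. Only Babeni libraries passed Locus_880_Transcript_13_17_, Locus_880_Transcript_11_17_, Locus_11949_Transcript_5_7_, Locus_18702_Transcript_8_13_, Locus_12404_Transcript_1_4_, Locus_13496_Transcript_1_1_, Locus_7936_Transcript_15_20_ and Locus_9216_Transcript_2_6_. Each of the latter was called higher in a comparison with Valcea, so part of the higher counts below rests on this selection. Among the 4685 tested described transcripts, 20.7% were higher and 24.8% lower for Babeni site 1 against Valcea, 27% and 32.1% for Babeni site 2 against Valcea, and 5.38% and 8.62% between the Babeni sites. List counts are to be read against these shares. The list for iron transport, chelation and cofactors had 17 transcripts of 13 loci, with 6 higher, 7 lower and 4 not called at Babeni site 1 against Valcea, and 5 higher, 8 lower and 4 not called at Babeni site 2. Their median difference was −0.48 and −1.10, and 0 of the 17 were called by limma, edgeR or DESeq2 between the Babeni sites, with 3 at an unadjusted limma p under 0.05. The higher counts include Locus_2358_Transcript_11_12_ and Locus_2358_Transcript_7_12_, both called higher at both Babeni sites. They are named stabilizer of iron transporter polynucleotidyl transferase and entered by those words alone. That name does not make them iron carriers, chelators or cofactor proteins.

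The lower iron transcripts included those named for nicotianamine aminotransferase, an enzyme that in grasses helps to make iron-chelating phytosiderophores. Locus_11504_Transcript_1_1_ averaged 20.1 ± 2.09 CPM at Valcea against 6.15 ± 1.71 CPM at site 1 and 5.94 ± 1.40 CPM at site 2 (−1.66 and −1.69 against Valcea). Locus_2448_Transcript_1_2_, a CDGSH iron-sulfur domain protein, averaged 21.2 ± 6.68 CPM at Valcea against 6.25 ± 1.57 CPM at site 1 and 4.01 ± 0.112 CPM at site 2 (−1.66 and −2.22). Neither of these is a membrane carrier.

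Among the higher iron transcripts, Locus_15518_Transcript_6_7_ is named oligopeptide transporter 3, a carrier that in Arabidopsis loads iron into the phloem. It averaged 1.50 ± 0.772 CPM at Valcea against 4.40 ± 0.649 CPM at site 1 and 4.15 ± 0.478 CPM at site 2 (1.35 and 1.28, both called higher). Locus_8342_Transcript_1_1_, the metal-nicotianamine transporter YSL5, averaged 2.58 ± 0.388 CPM at Valcea against 2.89 ± 0.665 CPM at site 1 and 5.63 ± 0.0097 CPM at site 2, and was called higher at Babeni site 2 (1.00) but not at Babeni site 1 (0.13). Carriers stood on both sides, also under 1 name. Of the transcripts named oligopeptide transporter 7 or 7-like, Locus_14831_Transcript_1_1_ averaged 24.9 ± 1.97 CPM at Valcea against 52.2 ± 13.9 CPM at site 1 and 44.0 ± 5.83 CPM at site 2, called higher at Babeni site 1 (1.02) and not called at Babeni site 2 (0.80). Locus_1170_Transcript_1_1_ was lower at both sites (−1.29 and −1.36), and so was Locus_1903_Transcript_8_11_ (−1.23 and −1.68).

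The list for copper proteins had 13 transcripts of 8 loci. At Babeni site 1 against Valcea limma called 4 higher, of 1 locus, and 4 lower, of 4 loci, with 5 not called. At Babeni site 2 against Valcea it called 6 higher, of 2 loci, and 2 lower, of 1 locus, with 5 not called. Between the Babeni sites limma called 0. edgeR called 6 (3 higher) and DESeq2 4 (2 higher) at Babeni site 1 against Valcea, and 9 (6 higher) and 8 (5 higher) at Babeni site 2. For the Babeni sites against each other 5 of the 13 had an unadjusted limma p under 0.05, edgeR called 1 and DESeq2 0. The plastocyanin transcript Locus_475_Transcript_2_4_ averaged 162 ± 40.3 CPM at Valcea against 72.5 ± 13.4 CPM at site 1 and 62.4 ± 10.4 CPM at site 2, called lower at both (−1.14 and −1.35). The other plastocyanin transcript of that locus, Locus_475_Transcript_3_4_, averaged 229 ± 32.6 CPM at Valcea against 116 ± 13.0 CPM at site 1 and 103 ± 19.9 CPM at site 2, not called at Babeni site 1 (−0.97) and called lower at Babeni site 2 (−1.15). A copper chaperone, Locus_18128_Transcript_1_2_, was lower at Babeni site 1 (−1.14) and not called at Babeni site 2 (−0.37). The higher copper proteins at Babeni site 1 were 4 transcripts named as L-ascorbate oxidase-like, an apoplastic multicopper enzyme, all of Locus_880. Among them Locus_880_Transcript_13_17_, at 0 to 0.237 CPM at Valcea, passed the filter only through Babeni libraries, where it was high. Other transcripts of that enzyme name were lower there, namely Locus_1197_Transcript_6_9_ (−1.35) and Locus_439_Transcript_15_17_ (−1.06). The largest mean among the Locus_880 transcripts was that of Locus_880_Transcript_14_17_, at 2.11 ± 0.248 CPM at Valcea against 6.80 ± 0.427 CPM at site 1 and 12.3 ± 2.25 CPM at site 2.

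In the thiol chelation list, with 15 transcripts of 12 loci, 4 were higher, 4 lower and 7 not called at Babeni site 1 against Valcea, and 3 higher, 1 lower and 11 not called at Babeni site 2. For the Babeni sites against each other 0 were higher and 2 lower by limma. There edgeR and DESeq2 each called 4 (1 higher), and 9 of the 15 had an unadjusted limma p under 0.05. No described transcript was named phytochelatin synthase, the enzyme that makes the metal-binding peptides of plants, so the list rests on enzymes of glutathione, glutaredoxins and a serine acetyltransferase. The glutathione S-transferase transcript Locus_464_Transcript_3_3_ averaged 42.6 ± 14.8 CPM at Valcea against 101 ± 7.94 CPM at site 1 and 60.2 ± 7.55 CPM at site 2, called higher at Babeni site 1 (1.30) and not at Babeni site 2 (0.55). Locus_3805_Transcript_3_3_, of the same enzyme family, was lower at Babeni site 1 (−1.26) and not called at Babeni site 2 (−0.82).

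The efflux and vacuolar sequestration list had 9 transcripts of 7 loci, with 0 higher, 3 lower and 6 not called by limma at Babeni site 1 against Valcea, and 4 higher, 2 lower and 3 not called at Babeni site 2. For Babeni site 2 edgeR called 7 (4 higher) and DESeq2 4 (2 higher). At Babeni site 1, 8 of the 9 had an unadjusted limma p under 0.05, and edgeR and DESeq2 each called 4 (1 higher). The 3 lower ones were MATE efflux transcripts of Locus_591. An ABC transporter C family member 4-like transcript, Locus_15271_Transcript_1_1_, of a family that in Arabidopsis includes vacuolar pumps for metal-thiol complexes, averaged 19.6 ± 3.68 CPM at Valcea against 33.8 ± 1.83 CPM at site 1 and 50.0 ± 4.24 CPM at site 2. It was called higher at Babeni site 2 (1.34) and not at Babeni site 1 (0.78). Whether this transcript encodes such a pump was not tested. Locus_379_Transcript_17_21_, named family member 2-like, averaged 3.93 ± 0.846 CPM at Valcea against 8.27 ± 2.64 CPM at site 1 and 10.8 ± 1.06 CPM at site 2. It too was called higher at Babeni site 2 (1.37) and not at Babeni site 1 (0.96). Locus_1264_Transcript_2_4_, named family member 10-like, was not called at either (−0.42 at site 1 and −0.94 at site 2). Between the Babeni sites limma, edgeR and DESeq2 called 0 of the 9, with 2 at an unadjusted limma p under 0.05.

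The list of other cation transporters, 17 transcripts of 10 loci, had 6 higher, 6 lower and 5 not called at Babeni site 1 against Valcea, 6 higher, 5 lower and 6 not called at Babeni site 2, and 2 higher, 1 lower and 14 not called between the Babeni sites. Its words also took in transcripts that are not cation transporters by name. Locus_7936_Transcript_15_20_ and Locus_7936_Transcript_18_20_, named molybdate-anion transporter-like, were called higher at Babeni site 1, the first also at Babeni site 2. Locus_17167_Transcript_1_2_, named as a manganese-dependent diphosphatase, was not called in any comparison. Of the lower ones, 5 were transcripts of Locus_3935, a potassium transporter. The most abundant, Locus_3935_Transcript_11_13_, fell from 82.3 ± 2.55 CPM at Valcea to 24.5 ± 1.04 CPM at site 1 and 26.2 ± 2.63 CPM at site 2. The higher ones at Babeni site 1 included 3 transcripts of Locus_2524, named as plasma membrane calcium-transporting ATPases. Words for the ZIP family of zinc and iron carriers matched 0 described transcripts.

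**Figure D4:**
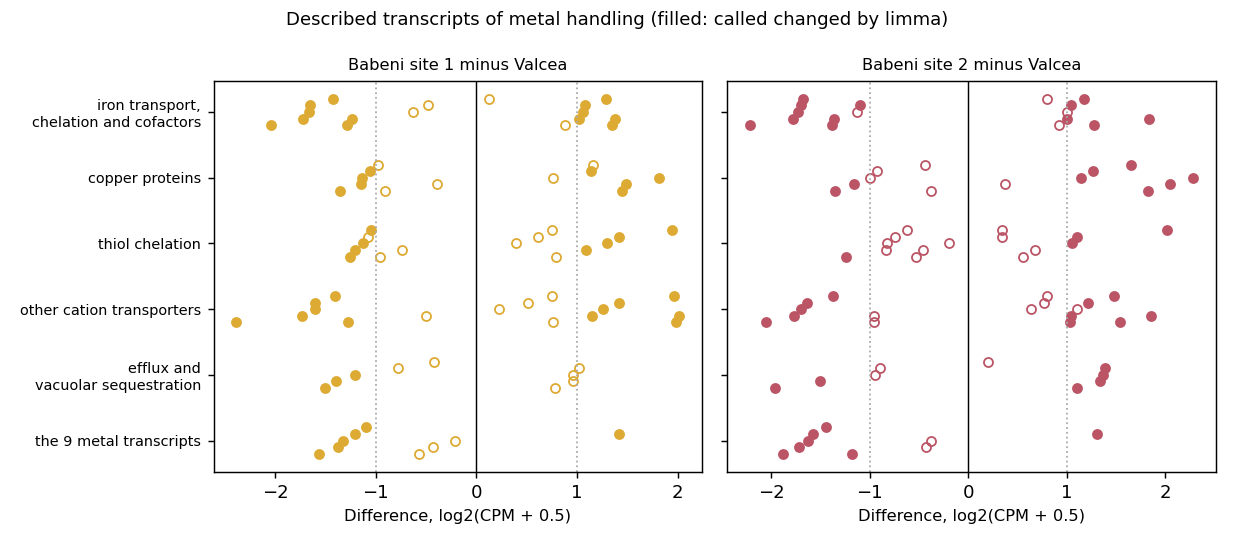
Log2 difference against Valcea (x axis, log2(CPM + 0.5) scale) of each described transcript in the 5 lists of metal handling and of the 9 members, for Babeni site 1 (left) and Babeni site 2 (right). Each point is 1 transcript, filled where limma called it changed, with dotted lines at 2-fold. Each of the 5 lists held transcripts on both sides of 0, and of the 9 members 1 lay to the right in each panel.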

How the data were processed

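Per the labels' protocols, RNA was extracted with TRI-Reagent and 300 ng went into each library, made with the stranded TruSeq mRNA kit. Tools named by the submitters' processing notes, without their roles, are edgeR 3.4.2, HTSeq 0.5.3p9, TopHat2 2.0.11 and BWA 0.7.10; the build and annotation are not given in the sources used here. The deposited table holds a signal for each transcript, which its title calls edgeR CPM and which the authors scaled library by library. The tables of comparisons hold log2 fold changes, p-values and FDR by the authors, per the file headers, for listed transcripts only. Plain CPM had been assumed in the plan. Since library totals differ, the values were handled as a scaled signal with no change of test. Dividing by the value of 1 read gave whole reads, within 0.01, for 100% of values in each library.

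The members, word lists and tests were chosen with earlier results of these data known. On log2(CPM + 0.5), limma (version 3.58.1, R 4.3.3, trended prior variance, no covariates) was fitted to all 9 libraries and to the 56752 transcripts that reached 1 CPM in 3 or more of them, and p-values were adjusted over all of these by Benjamini-Hochberg. Alternatives were edgeR (version 4.0.16) and DESeq2 (version 1.42.0) run on the recovered reads, other pseudocounts and filters, median centring, sums per locus, the replicate number as a block, and each library left out. edgeR called 4954, 7507 and 2191 transcripts for Babeni site 1 against Valcea, for Babeni site 2 against Valcea and between the Babeni sites. Members with a mean of 5 CPM or more at a site are given per library, and so is the metal tolerance transcript, because its direction was opposite. Other transcripts of the lists were named after their values were seen. Floors cover counting error only.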

Additional observations from a re-analysis of the deposited data

How the results depend on the processing

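The reductase and the copper transporter kept their direction and calls in all 3 comparisons under all 18 alternatives. Some of these could not move their differences. Each is the single transcript of its locus, so the locus sum repeats its level. Leaving out a library of the site outside a comparison also leaves the difference of that comparison as it was. The number of members called at Babeni site 1 against Valcea was 6 as reported, and 2 with a pseudocount of 2, 2 with a filter of 5 CPM, under which 4 members were tested, 2 under DESeq2, and 3 to 5 with 1 library left out, the lowest without Babeni site 1 replicate 2. At Babeni site 2 against Valcea it was 7, and 4 under a pseudocount of 2, a filter of 5 CPM, DESeq2 and sums over the 6 loci, with 5 to 7 when 1 library was left out. Between the Babeni sites it was 2, and 0 with locus sums, with 2 to 3 when 1 library was left out. Over all transcripts, calls for Babeni site 1 against Valcea went from 5151 to 2069 with a pseudocount of 2 (679 higher and 1390 lower, against 2369 and 2782), 2436 with a filter of 5 CPM, 3324 under DESeq2 and 3359 loci with sums. For Babeni site 2 against Valcea they went from 6861 to 3313, 3308 and 4543 with the pseudocount of 2, the 5 CPM filter and locus sums, and between the Babeni sites from 1805 to 1054 with the pseudocount and 1104 with the filter. Leaving out 1 library gave 4056 to 6523, 5361 to 8109 and 1221 to 2116 calls in the 3 comparisons. Single members turned in sign 3 times, all between the Babeni sites: Locus_9843_Transcript_4_6_, at −0.06, ranged from −0.33 to 0.32 when 1 library was left out (0.12 without Babeni site 1 replicate 3, 0.32 without Babeni site 2 replicate 1), and Locus_9843_Transcript_5_6_, at 1.13, came to −0.16 as a locus sum. The filter, the sums and the runs without 1 library test fewer features. Without any 1 Valcea library Locus_9843_Transcript_4_6_ failed the filter and 8 members were tested, so its range covers only runs without a Babeni library. A pseudocount of 2 leaves a transcript with a mean under 2 CPM no room for a 2-fold fall. The cause of the other shifts was not tested. Of 462 values of single members under alternatives, 417 kept direction and call, 39 lost a call, 3 gained one and 3 turned. Libraries of different sites with the same number in their titles did not deviate together (r of −0.156 to 0.0577, with 0 of 9 pairs over 0.1). The submitters' sample names carry other numbers, which were not examined, so whether any libraries are paired was not settled. With the replicate number as a block, 4855, 6583 and 1670 transcripts and 5, 7 and 2 members were called, and the member whose call was lost was the chloroplastic ATPase at Babeni site 1 (−1.10). Depth limits the 5 scarce members most, with a median of 6 reads per library.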
